A study of Mus musculus with 2 samples.

Results

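Lcn2, Lyz2, Fgg, Hp and Saa3 are 5 genes for secreted defence and acute-phase proteins, and their transcripts were counted cell by cell in the mouse submandibular gland, a salivary gland. The 5 genes were chosen by their differences between these same libraries and cell classes, so every ratio given for them is a description with no test. They are 5 of the 27998 genes in the tables. The study asks what the transcription factor p63, encoded by Trp63, does in the epithelium of the gland. It compared 1 single-cell library from a p63 KO mouse with 1 library from a p63 wild-type (WT) mouse, both adults of 12 weeks. Cells of whole dissociated glands were captured in droplets with the 10x Genomics 3' v2 chemistry, which tags each captured molecule with a UMI and each droplet with a cell barcode. The source field of the labels names epithelial progenitor cells, whereas the libraries also held myeloid, endothelial, lymphoid and red cell transcripts. The labels give neither the strain, the way and time of p63 removal, the cells it was removed from, nor whether glands of several mice were pooled.

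Lipocalin 2, the product of Lcn2, binds iron-loaded siderophores and keeps iron from bacteria. It is stored in neutrophil granules and is induced in many epithelia. Lysozyme 2, from Lyz2, is the lysozyme of mouse macrophages and neutrophils and cleaves bacterial cell walls, while its neighbour and close copy Lyz1 is the lysozyme of Paneth cells. Fgg encodes the gamma chain of fibrinogen, which clots blood once it is assembled with the alpha and beta chains from Fga and Fgb. Hp encodes haptoglobin, which binds free haemoglobin and is cleared by the macrophage receptor Cd163. Saa3 encodes a serum amyloid A protein that mouse macrophages and adipocytes make. Fibrinogen, haptoglobin and serum amyloid A are classic acute-phase proteins of the liver, driven by IL-6 and IL-1 through STAT3, C/EBP and NF-kappaB factors.

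On GRCm38, Lcn2 lies on the minus strand of chromosome 2 at 32384633 to 32388252, Lyz2 on the minus strand of chromosome 10 at 117277331 to 117282321, and Fgg on the plus strand of chromosome 3 at 83007724 to 83015049. Hp lies on the minus strand of chromosome 8 at 109575128 to 109579172 and Saa3 on the minus strand of chromosome 7 at 46711998 to 46715700. RefSeq promoter sequences on GRCm38.p6 were matched to 4 of the 5 genes, and Hp was the other. They run from 250 bases before to 50 bases after the RefSeq start of the gene. The positions above are from GENCODE, and the RefSeq start of Lcn2 lies further into the gene. The Lcn2 window therefore lies wholly inside the interval given above. The promoters of 3 members are printed because these genes lay mostly in different cells of the KO library: Lcn2 in ducts, Fgg in acini and Saa3 outside the epithelium. Capitals mark matches, on either strand, to a C/EBP motif (TTNNGNAA) or an NF-kappaB motif (GGGNNNNNCC).
Lcn2, chr2:32387690-32387989, minus strand: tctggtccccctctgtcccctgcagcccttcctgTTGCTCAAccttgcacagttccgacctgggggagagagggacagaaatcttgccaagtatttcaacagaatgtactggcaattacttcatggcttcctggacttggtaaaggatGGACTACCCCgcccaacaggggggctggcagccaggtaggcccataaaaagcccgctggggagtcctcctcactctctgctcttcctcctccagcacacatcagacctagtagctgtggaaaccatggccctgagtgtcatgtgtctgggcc
Fgg, chr3:83007474-83007773, plus strand: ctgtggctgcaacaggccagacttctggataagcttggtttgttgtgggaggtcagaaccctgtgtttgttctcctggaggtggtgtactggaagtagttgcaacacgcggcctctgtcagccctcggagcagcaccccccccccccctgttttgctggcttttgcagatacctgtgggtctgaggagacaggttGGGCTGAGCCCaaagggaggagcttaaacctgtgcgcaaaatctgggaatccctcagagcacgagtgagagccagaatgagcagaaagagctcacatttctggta
Saa3, chr7:46715627-46715926, minus strand: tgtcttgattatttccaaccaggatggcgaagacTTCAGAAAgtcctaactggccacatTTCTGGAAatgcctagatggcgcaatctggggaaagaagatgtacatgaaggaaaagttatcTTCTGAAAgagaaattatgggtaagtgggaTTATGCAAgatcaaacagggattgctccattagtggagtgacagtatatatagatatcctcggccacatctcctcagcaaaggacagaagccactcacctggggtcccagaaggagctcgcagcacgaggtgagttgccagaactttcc
The Lcn2 window held 1 C/EBP match, 216 to 209 bases before the RefSeq start, and 1 NF-kappaB match, 102 to 93 bases before it. The Fgg window held 2 NF-kappaB matches that overlap, on opposite strands, between 55 and 45 bases before the start. The Saa3 window held 4 C/EBP matches, and the Lyz2 window held 1. A C/EBP match was present in 40.7% of 32851 mouse promoters of the same length, 4 or more of them in 0.852%, and an NF-kappaB match in 50.8%. None of the 4 windows held the STAT motif TTCNNNGAA, which 8.30% of promoters held. These matches are strings of letters and were not set against any binding data.

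After barcodes with under 200 genes or 20% or more mitochondrial UMIs were left out, 2423 KO cells and 1663 WT cells remained. They held 6871803 UMIs in the KO library and 7931377 in the WT library, with medians of 2088 UMIs per KO cell and 3406 UMIs per WT cell. The fewest UMIs in a kept cell were 1077 in KO and 2175 in WT, so shallow cells were present in the KO library alone. The barcodes shared between the libraries numbered 11, of which 7 were kept in both. Cells were clustered in each library separately without the 5 genes, and clusters were called "-like" from marker genes. Trp63 had 20 UMIs in KO cells, or 2.91 CPM (UMIs of a gene per 1000000 UMIs of the cells), against 149 UMIs in WT cells, or 18.8 CPM. In KO basal duct-like cells Trp63 had 11.8 CPM, against 55.6 CPM in WT ones. In KO myoepithelial-like cells it had 47.8 CPM, against 89.6 CPM in WT ones. All epithelial-like classes together held 1577 KO cells and 1429 WT cells, but in unlike proportions. Granular convoluted tubule-like cells numbered 452 in KO and 157 in WT, and striated or excretory duct-like cells 213 in KO and 35 in WT. Basal duct-like cells numbered 109 in KO and 400 in WT, and Mucl2-rich acinar-like cells 29 in KO and 154 in WT. Ratios over all epithelial-like cells therefore mix the level in each class with the make-up of classes. Endothelial-like and lymphoid-like cells, which should make none of the 5 proteins in quantity, served as a gauge of free RNA, the RNA that leaks into droplets. The gauge held 410 KO cells with a median of 1438 UMIs, and 109 WT cells with a median of 2834 UMIs. The levels below are CPM of all UMIs of a class, with exact Poisson 95% intervals. When both libraries were clustered together, 96 of 109 KO basal duct-like cells fell in a striated or excretory duct-like class, whereas 387 of 400 WT ones stayed basal duct-like. Basal duct-like ratios of KO to WT therefore compare cells that parted when clustered together. In the other 6 classes compared, 66.1 to 97.9% of the cells of each library kept their class name. Shares of cells have exact binomial 95% intervals, ratios have exact conditional 95% intervals, and all of these cover counting error only.

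The transcripts of the 5 genes lay in different cells. Of the Lcn2 UMIs, 86.3% lay in epithelial-like cells in the KO library and 99% in the WT library. Fgg was as epithelial, with 94.2% in the KO library and 97.3% in the WT library. Lyz2 was split, with 51.9% in KO epithelial-like cells and 11.3% in WT ones. Hp was 48.0% epithelial in the KO library, where 19 adipocyte-like cells held another 48.3%, and 97.4% epithelial in the WT library, which had no adipocyte-like cluster. Saa3 was 7.37% epithelial in the KO library, with 62.1% in myeloid-like and 25.3% in adipocyte-like cells, and the WT library held only 6 Saa3 UMIs in all.

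**Figure D1:**
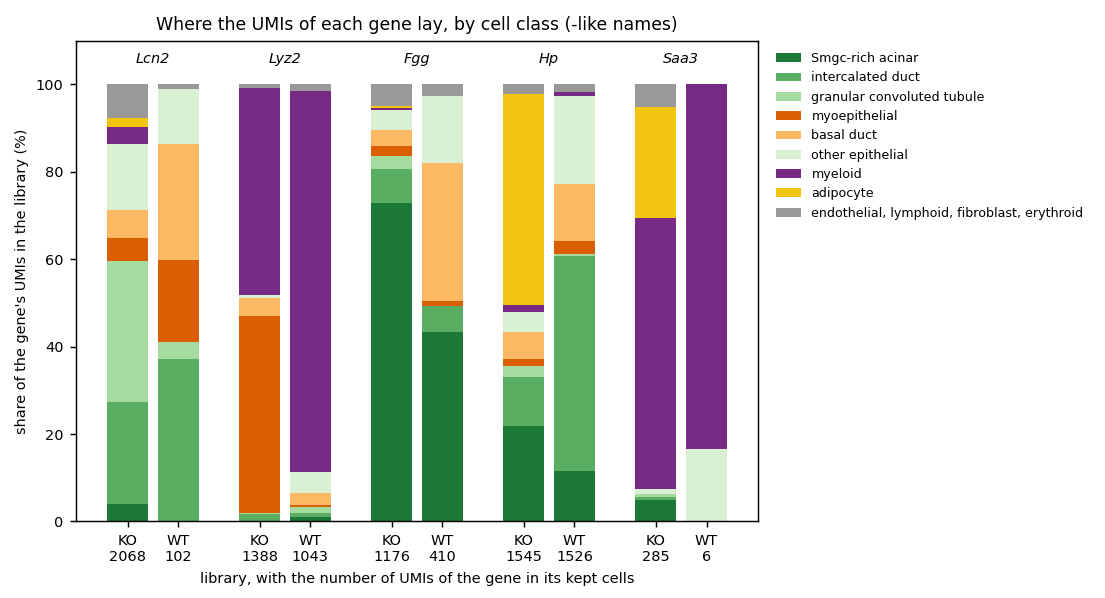
Share of each gene's UMIs (y axis, percent) by cell class, with the KO bar left of the WT bar for each gene and the number of UMIs under each bar. Lcn2 and Fgg lay mostly in epithelial-like classes in both libraries, Lyz2 lay 47.4% in KO myeloid-like cells against 87.2% in WT ones, and Hp and Saa3 had adipocyte-like shares of 48.3% and 25.3% in the KO library.

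Lcn2 was the member with the widest reach in KO epithelium. It had 1785 UMIs in KO epithelial-like cells, a level of 337 CPM (322 to 353), against 101 UMIs in WT ones, a level of 14.0 CPM (11.4 to 17.0). The ratio of KO to WT was 24.1 (19.7 to 29.7). A UMI of Lcn2 was seen in 40.1% of KO epithelial-like cells (37.6 to 42.5%), against 4.2% of WT ones (3.22 to 5.37%). Median depth was 2538 UMIs in these KO cells and 3601 UMIs in these WT cells, so the deeper library had the lower share. With every cell thinned to 1000 UMIs the shares were 22.6% in KO and 1.05% in WT epithelial-like cells.

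Duct classes led the order of Lcn2 levels in the KO library. Granular convoluted tubule-like cells, which make kallikreins and epidermal growth factor, had 585 CPM (542 to 631), with a UMI in 56.2% of 452 cells. Intercalated duct-like cells, which join acini to the larger ducts, had 471 CPM (429.7 to 515). Basal duct-like cells had 397 CPM (333 to 470.2) and myoepithelial-like cells 369 CPM (303 to 445). Adipocyte-like cells, at 375 CPM (270.2 to 507), could not be separated from these last classes by their intervals, and neither could basal duct-like from intercalated duct-like cells. Striated or excretory duct-like cells had 276 CPM (238 to 319.9). Below them came Smgc-rich acinar-like cells at 159 CPM (126 to 197), ionocyte-like cells at 143 CPM (117 to 173) and the few Mucl2-rich acinar-like cells at 42.3 CPM (27.4 to 62.4). The ionocyte-like class was uneven, with 32.6 CPM (17.4 to 55.7) in its larger cluster and 277 CPM (223 to 339.8) in the other.

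The Lcn2 levels of acinar-like cells and of the larger ionocyte-like cluster in the KO library were not above the free RNA gauge. The KO gauge had 161 CPM (133 to 194), with a UMI in 15.1% of its cells (11.8 to 19%), or 10.5% after thinning. Smgc-rich acinar-like cells had a UMI in 17.1% of cells (11.4 to 24.2%), or 8.22% after thinning, so their share was not above that of the gauge. The gauge was not the lowest level, since the larger ionocyte-like cluster had 32.6 CPM and Mucl2-rich acinar-like cells 42.3 CPM. How much of the acinar Lcn2 was free RNA was not tested. The UMIs of Smgc-rich acinar-like cells were less evenly spread than those of the gauge. Of these 146 cells, 7 had 5 or more Lcn2 UMIs and held 55 of 83, against 6 of 410 gauge cells that held 41 of 113. The larger ionocyte-like cluster, with 1.68% after thinning, was below the gauge, and the other, with 20.4%, was above it. Granular convoluted tubule-like cells at 34.5%, myoepithelial-like cells at 31.8%, basal duct-like cells at 30.3%, intercalated duct-like cells at 22.7% and striated or excretory duct-like cells at 21.1% after thinning stood above the gauge.

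Lcn2 in KO endothelial-like cells went with epithelial RNA in the same droplets. The 159 endothelial-like cells with no UMI of 6 pan-epithelial genes had 103 CPM of Lcn2 (67.2 to 151) and a UMI in 12.6% of cells. The 117 cells with 1 to 4 such UMIs had 194 CPM (137 to 266) and a UMI in 19.7%. The 41 cells with 5 or more had 312 CPM (219 to 433) and a UMI in 34.1%, with a median depth of 2703 UMIs against 1449 UMIs in the cells with none. Per 100 UMIs of 11 tubule genes (Egf and kallikreins), Lcn2 had 0.45 UMIs in KO granular convoluted tubule-like cells and 0.41 in ionocyte-like cells. It had 1.81 in the gauge, 2.08 in myeloid-like cells, 11.2 in myoepithelial-like, 12.7 in basal duct-like and 19.4 in intercalated duct-like cells. The ratio of Lcn2 to tubule RNA was thus not the same in these classes. Whether endothelial-like or lymphoid-like cells make some Lcn2 themselves was not tested.

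Lcn2 was low in every WT class. Myoepithelial-like cells had the highest WT level, 77.4 CPM (46.6 to 121) with a UMI in 23.5% of 51 cells. Intercalated duct-like cells had 34.7 CPM (24.6 to 47.6), and 21 of their 38 UMIs were in 1 cell. Basal duct-like cells had 16.7 CPM (11.0 to 24.3), and the other epithelial-like classes had 0 to 11.3 CPM. No Lcn2 UMI was seen in the 109 cells of the WT gauge, which at a limit of 3 cells allows a share of up to 2.75%, or in the 86 WT macrophage-like cells, for which that limit is 3.49%. The exact binomial upper bound for the gauge is 3.33%.

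A gene was called higher or lower when the 95% interval of its ratio lay wholly beyond 2-fold, and it was tested only where the KO and WT cells summed to 50 or more UMIs of it. Lcn2 was called higher in KO cells in 7 of 7 classes compared, as well as in all epithelial-like cells. With cells thinned to 1000 UMIs, it was still called in granular convoluted tubule-like, intercalated duct-like and basal duct-like cells. In the other 4 classes thinning left 25 to 49 Lcn2 UMIs in KO cells and 0 to 2 in WT cells, too few for a call. Of all genes tested, 1.94% were called higher in granular convoluted tubule-like, 1.63% in intercalated duct-like, 1.41% in basal duct-like, 3.64% in myoepithelial-like and 0.901% in ionocyte-like cells. It was 9.51% in Smgc-rich acinar-like and 4.07% in endothelial-like cells. The KO to WT ratio of Lcn2 was 65.9 (25.6 to 243) in granular convoluted tubule-like cells, where WT cells had 4 UMIs. It was 23.8 (15.7 to 37.5) in basal duct-like cells, whose KO and WT cells did not cluster together, 13.6 (9.74 to 19.4) in intercalated duct-like cells and 12.7 (3.42 to 106) in ionocyte-like cells. The smallest ratio, 4.77 (2.91 to 8.22), was in myoepithelial-like cells, the class with the highest WT level. Against WT classes with 0 UMIs, set at 3 counts of the class, Lcn2 was at least 37.9-fold higher in KO Smgc-rich acinar-like cells and at least 12.9-fold higher in KO endothelial-like cells. The exact interval of the ratio has lower bounds of 30.2 in the acinar and 10.3 in the endothelial comparison. The KO Smgc-rich acinar-like level equalled that of the KO gauge within its interval. So did the KO ionocyte-like level, 143 CPM (117 to 173) against a gauge of 161 CPM (133 to 194). Endothelial-like cells are themselves part of the gauge. The intervals of tubule-like and myoepithelial-like cells did not overlap, and no test of the difference between classes exists with 1 library per genotype.

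**Figure D2:**
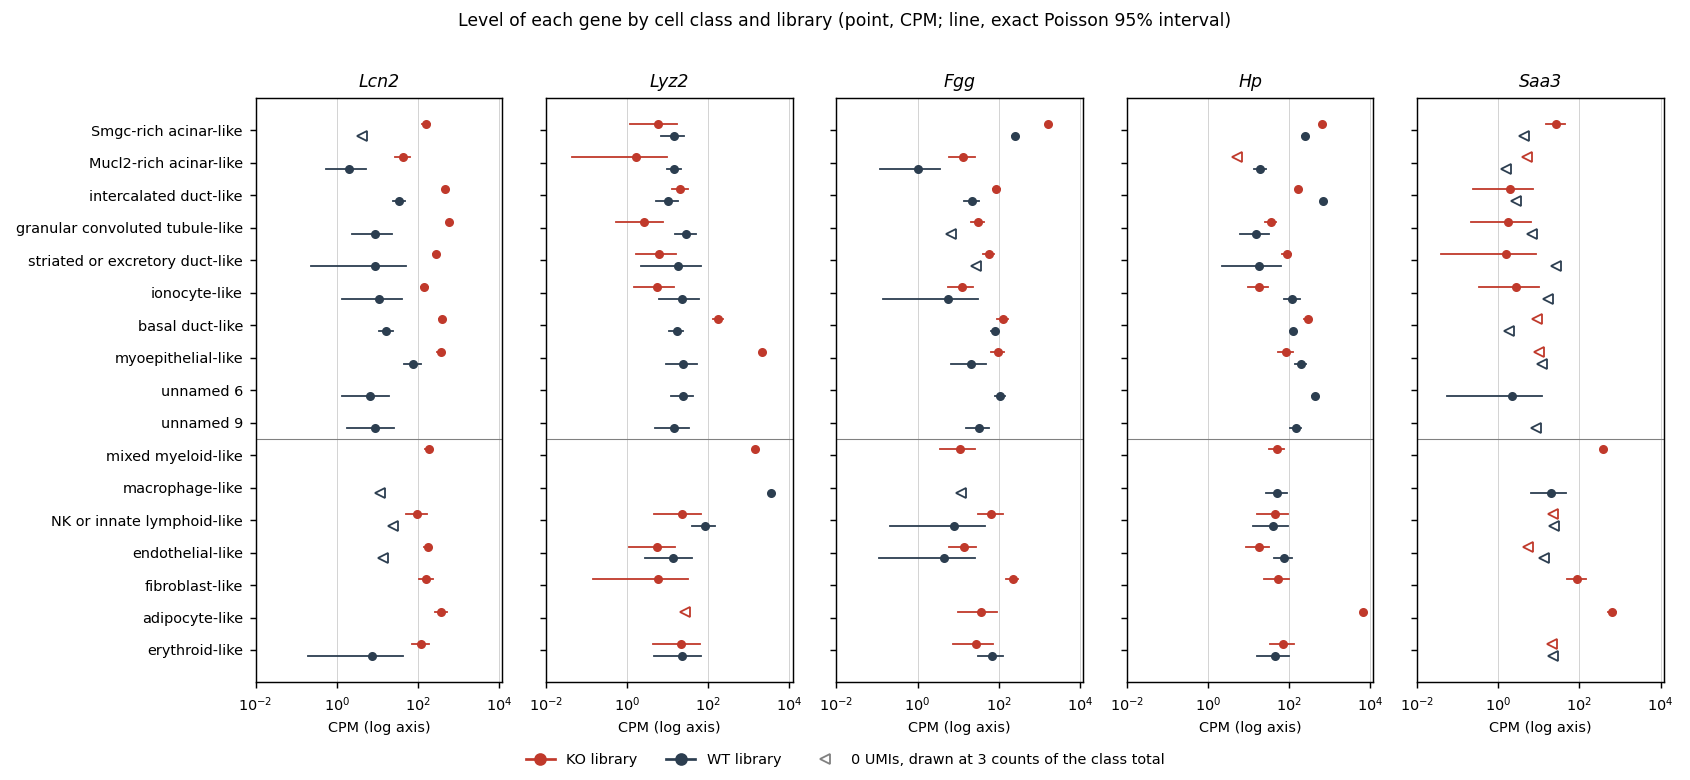
Level of each gene (x axis, CPM on a log scale) in each cell class (rows), KO points drawn above WT points, with exact Poisson 95% intervals and open triangles for classes with 0 UMIs, drawn at 3 counts. KO Lcn2 points stood to the right of WT points in every class shared by the libraries, whereas Hp points crossed: KO was at 643 CPM and WT at 246 CPM in Smgc-rich acinar-like cells, and KO at 171 CPM and WT at 686 CPM in intercalated duct-like cells.

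Single cells with much Lcn2 were rare but present in both libraries. The highest KO epithelial-like cell was intercalated duct-like, with 89 Lcn2 UMIs of 8856 UMIs in the cell and 0 pan-myeloid UMIs. The highest WT epithelial-like cell, also intercalated duct-like, had 21 Lcn2 UMIs, 108 Hp UMIs and 10 pan-myeloid UMIs of 8271 UMIs. Leaving out the 2 cells with the most Lcn2 UMIs in each library raised the intercalated duct-like ratio to 31.3 (18.1 to 59.3). The same step gave 250 (44.6 to 9871) in granular convoluted tubule-like cells, where 1 WT UMI then remained.

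Myeloid-like cells held little of the Lcn2 in the KO library. The KO myeloid-like cluster of 266 cells, which had markers of both macrophages and neutrophils, had 83 Lcn2 UMIs, and 21 of its cells had any. One cell, the single one with S100a8 or S100a9 (neutrophil calprotectin) and no C1q transcript, held 52 of them. The 252 cells with C1q transcripts (complement made by macrophages) and without S100a8 or S100a9 held 31 Lcn2 UMIs, a level of 72.5 CPM, which is below the gauge.

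Lyz2 was abundant in the myeloid-like cells of both libraries. KO myeloid-like cells had 658 UMIs, or 1447 CPM (1338 to 1562), with a UMI in 46.6% of 266 cells and at most 79 in a cell. WT macrophage-like cells had 909 UMIs, or 3563 CPM (3336 to 3803), with a UMI in 79.1% of 86 cells and at most 99 UMIs in a cell. After thinning, the shares were 35.3% in KO and 65.1% in WT myeloid-like cells. S100a8 or S100a9 was seen in 4 of the 266 KO cells and in none of the 86 WT cells. Among cells with C1q and without S100a8 or S100a9, the Lyz2 level was 1491 CPM in 252 KO cells and 3633 CPM in 75 WT cells.

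Lyz2 in epithelial-like cells was a matter of very few cells in the KO library. These cells held 720 UMIs, or 136 CPM (126 to 146), in KO and 118 UMIs, or 16.4 CPM (13.6 to 19.6), in WT, a ratio of 8.31 (6.83 to 10.2). A Lyz2 UMI was nevertheless seen in a smaller share of cells in KO, 3.30% (2.47 to 4.30%), than in WT, 7.0% (5.73 to 8.45%). Thinning brought these shares to 1.46% in KO and 1.89% in WT epithelial-like cells, with overlapping intervals. The KO gauge had a share of 0.732% and the WT gauge 8.26%, so the WT epithelial share is read as background. The KO level came from 11 cells with 5 or more Lyz2 UMIs, which held 658 of the 720 UMIs, whereas no WT epithelial-like cell had more than 4. Without cells of 5 or more Lyz2 UMIs the log2 ratio, with 10 CPM added to both sides, was -0.27 in place of 2.47.

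Of the 11 KO cells with 5 or more Lyz2 UMIs, 9 were in the myoepithelial-like cluster, 1 was basal duct-like and 1, with 15 Lyz2 UMIs, was intercalated duct-like. KO myoepithelial-like cells had 625 Lyz2 UMIs, or 2135 CPM (1971 to 2309), a level above that of KO myeloid-like cells, and 31 of 85 cells had a UMI. The 2 highest cells held 70.1% of those UMIs. WT myoepithelial-like cells had 6 UMIs, or 24.4 CPM (8.97 to 53.2), and the ratio was 87.4 (39.9 to 239). Without the 2 top cells in each library that ratio was 50.5 (17.0 to 247), from 187 KO UMIs and 3 WT UMIs. Among KO myoepithelial-like cells, 22 had 1 to 4 Lyz2 UMIs each and held 40 in all. KO basal duct-like cells had 59 Lyz2 UMIs in 2 cells, 58 of them in 1, against 27 UMIs spread over 22 of 400 WT cells. The ratio of 10.4 (6.5 to 17.1) in basal duct-like cells therefore rests on 1 cell, and without the 2 top cells the KO count was 0 UMIs against 23 in WT. Intercalated duct-like cells had 20.6 CPM in KO and 10.0 CPM in WT, a ratio of 2.05 (0.945 to 4.71). Other KO epithelial-like classes had 1.69 to 6.14 CPM.

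The Lyz2-rich epithelial-like cells carried almost no other myeloid RNA. The 5 KO epithelial-like cells with 20 or more Lyz2 UMIs had 276, 162, 83, 58 and 21 of them, and the fourth was in the basal duct-like cluster. Lyz2 was 3.08, 2.25, 2.75, 1.14 and 0.326% of the UMIs of these cells. Together they had 30691 UMIs, of which 1 was of the 10 pan-myeloid genes, 68 were of Epcam and 91 of Krt8, both genes of simple epithelium. In the whole KO myoepithelial-like class, 7 of the 10 pan-myeloid genes were at 0, namely Tyrobp, Ptprc, Laptm5, Cd52, Coro1a, Spi1 and Ctss, and the other 3 had 25 UMIs. Pan-myeloid level was 61.8 CPM in KO epithelial-like cells with 5 or more Lyz2 UMIs and 61.5 CPM in those with none. The first value rests on 1 pan-myeloid UMI in the cells with 20 or more Lyz2 UMIs and 3 in those with 5 to 19. The 41 KO epithelial-like cells with 1 to 4 Lyz2 UMIs had 22 pan-myeloid UMIs of 186795. That is a higher level than the 310 of 5038229 in those with none. In WT epithelial-like cells the pan-myeloid level was 171 CPM in those with a Lyz2 UMI, all with 1 to 4, and 119 CPM in those without. A doublet caller marked 6 of 2423 KO cells and 0 of 1663 WT cells, too few for the caller to have worked, and none of the marked cells had 5 or more Lyz2 UMIs.

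**Figure D3:**
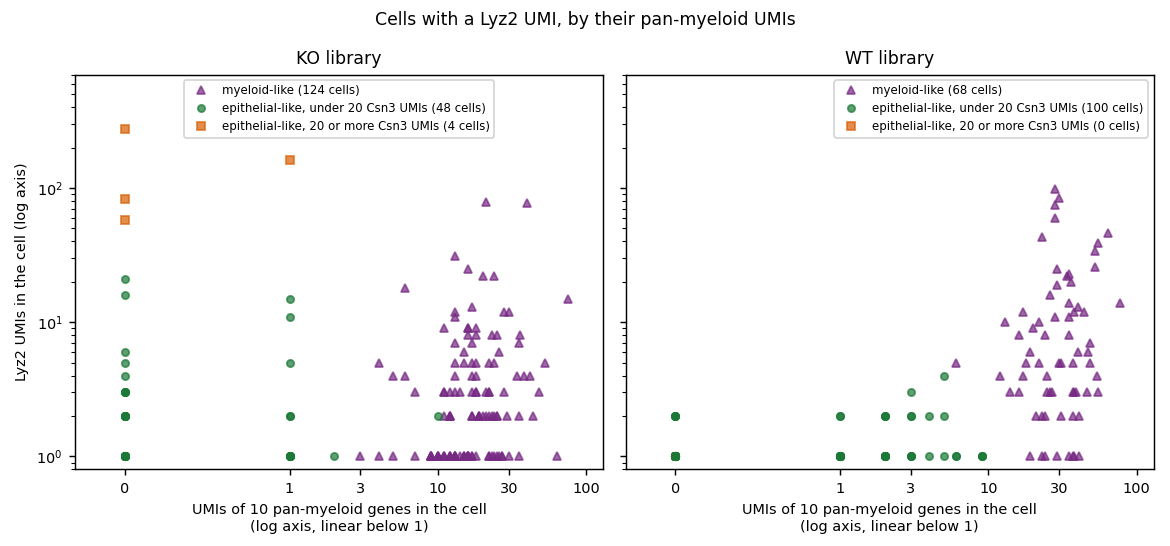
Each point is a cell with a Lyz2 UMI, with UMIs of 10 pan-myeloid genes on the x axis and Lyz2 UMIs on the y axis, both on log scales, in the KO library (left) and the WT library (right). Squares are KO epithelial-like cells with 20 or more Csn3 UMIs, which reach 276 Lyz2 UMIs with at most 1 pan-myeloid UMI, while WT epithelial-like cells stay at 4 Lyz2 UMIs or fewer.

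Kappa-casein (Csn3), a milk protein of mammary epithelium, was abundant in most of the same cells, and this gene was picked after the values were seen. The 5 Lyz2-rich cells had 311, 46, 132, 63 and 8 Csn3 UMIs in the order of their Lyz2 counts. They also had 583 UMIs of Wfdc18, a marker of intercalated duct, 70 of Krt17 and 1 of Acta2, the smooth muscle actin that defines myoepithelial cells. The 5 KO myoepithelial-like cells with 5 to 19 Lyz2 UMIs had 31 Acta2 UMIs, and 3 of them had at least 3. The 22 with 1 to 4 Lyz2 UMIs had 347 Acta2 UMIs, and 21 of them had at least 3. The 54 with no Lyz2 UMI had 684 Acta2 UMIs, and 50 had at least 3. The cells with 20 or more Lyz2 UMIs therefore go against the myoepithelial-like name of their cluster and are called here only Csn3-rich and Lyz2-rich. Csn3 had 687 UMIs in KO cells, all in epithelial-like cells, and 5 cells with 20 or more held 572 of them and 579 Lyz2 UMIs. One of those 5 had no Lyz2 UMI. In WT cells Csn3 had 25 UMIs in 3 cells, at most 18 in a cell and with 0 Lyz2 UMIs, so the WT library held no comparable cell.

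Lyz2 shares stretches of sequence with its neighbour Lyz1. Within the last 500 bases of the Lyz2 transcript, where 3' counting reads fall, 7 of 403 windows of 98 bases also occurred in a Lyz1 transcript, as did 76 of 451 windows of 50 bases. Lyz1 itself had 15 UMIs in KO cells, 8 of them in the myoepithelial-like cluster, and 13 UMIs in WT cells, 12 of them in macrophage-like cells. The sources used here do not say how such reads were counted.

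Fgg had its highest level, in both libraries, in Smgc-rich acinar-like cells, which make the submandibular gland protein Smgc. KO Smgc-rich acinar-like cells had 858 Fgg UMIs, or 1641 CPM (1533 to 1755), against 178 UMIs, or 248 CPM (213 to 288), in WT ones. The ratio was 6.61 (5.62 to 7.81). A UMI was present in 84.9% of 146 KO cells (78.1 to 90.3%), against 28.9% of 187 WT cells (22.5 to 35.9%). After thinning the shares were 61% in KO and 11.8% in WT cells. The KO gauge had a UMI in 0.976% of cells and the WT gauge in 1.83%, far below the acinar shares of either library. These acinar cells held 73.0% of all KO Fgg UMIs and 43.4% of all WT ones. WT basal duct-like cells held 31.5% of the WT ones, with a UMI in 18.5% of 400 cells. After thinning, the WT basal duct-like share of 8% (5.54 to 11.1%) overlapped the WT acinar one (7.52 to 17.3%).

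The highest KO Smgc-rich acinar-like cell had 43 of the 858 Fgg UMIs, and the highest WT one had 44 of 178. Without the 2 top cells in each library the ratio was 9.44 (7.76 to 11.6). Smgc itself moved with the result, at 39076 CPM in KO and 220110 CPM in WT Smgc-rich acinar-like cells. With Smgc left out of the class totals the Fgg ratio was 5.36 (4.56 to 6.34). For each 100 Smgc UMIs there were 4.2 Fgg UMIs in KO and 0.113 in WT Smgc-rich acinar-like cells. When both libraries were clustered together, 135 of the 146 KO cells and 181 of the 187 WT cells fell in a Smgc-rich acinar-like class. So did 89 of the 92 cells of an unnamed WT epithelial cluster, which had 114185 CPM of Smgc and 49 Fgg UMIs. The WT Smgc-rich acinar-like levels, shares and ratios given here, for every gene, leave these 92 cells out.

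The other KO epithelial-like classes had Fgg levels of 12.4 to 127 CPM. Basal duct-like cells had 127 CPM (91.6 to 171) in KO and 79.7 CPM (66.5 to 94.7) in WT, a ratio of 1.59 (1.10 to 2.26) that did not pass the call. Intercalated duct-like cells had 88.3 CPM (71.0 to 109) in KO and 21.9 CPM (14.0 to 32.6) in WT, a ratio of 4.03 (2.54 to 6.61) that did, though not after thinning. After thinning, a Fgg UMI was left in 3.12% of the KO intercalated duct-like cells and 1.27% of the WT ones, near the level of 1 UMI per cell. Striated or excretory duct-like cells had 56.8 CPM in KO against 0 UMIs in 35 WT cells, and granular convoluted tubule-like cells had 30.6 CPM in KO against 0 UMIs in 157 WT cells. The KO gauge of 24.3 CPM (14.1 to 38.9) overlaps the tubule-like value. In KO fibroblast-like cells 36 of 38 Fgg UMIs were in 1 cell. The unnamed WT epithelial cluster of 92 cells, most of which joined the Smgc-rich acinar-like class in joint clustering, had 107 CPM (79.2 to 141). In all epithelial-like cells together Fgg had 209 CPM (197 to 222) in KO and 55.4 CPM (50.1 to 61.1) in WT, a ratio of 3.78 (3.37 to 4.25).

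The other fibrinogen chains did not match Fgg in level. Fgb had 65 UMIs, or 124 CPM (96.0 to 158), in 12 KO Smgc-rich acinar-like cells, against 19 UMIs, or 26.5 CPM (16.0 to 41.4), in 7 WT ones. Fga had 0 UMIs in both libraries. The 3 genes are neighbours on chromosome 3, with Fga at 83026076 to 83033627 on the plus strand and Fgb at 83040141 to 83049863 on the minus strand. Counts of 3' ends do not measure chains as protein, and levels of different genes from 3' counting are set side by side here without a length correction.

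Hp differed in direction between epithelial classes. In Smgc-rich acinar-like cells it had 643 CPM (576 to 715) in KO and 246 CPM (211 to 285) in WT, a ratio of 2.62 (2.17 to 3.16) that passed the call but not after thinning. In intercalated duct-like cells it had 171 CPM (146 to 198) in KO and 686 CPM (638 to 737) in WT, so that the WT level was 4.02 times the KO level (3.40 to 4.77). Of all genes tested in intercalated duct-like cells, 2.19% were called lower in KO. The share of intercalated duct-like cells with a Hp UMI was 32.0% in KO (26.4 to 38.1%) and 76.8% in WT (70.9 to 82.0%), or 12.1% in KO and 43.5% in WT after thinning. The share of Smgc-rich acinar-like cells was 53.4% in KO and 36.9% in WT, or 32.2% in KO and 18.2% in WT after thinning. The gauges had a Hp UMI in 3.17% of KO cells and 11.9% of WT cells, below all of these.

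Both Hp calls held without the highest cells. One WT intercalated duct-like cell held 108 of 751 Hp UMIs, and without the 2 top cells in each library the log2 ratio in that class was -1.77 in place of -1.95. In Smgc-rich acinar-like cells the same step gave 1.38 in place of 1.35. With Smgc left out of the class totals the Smgc-rich acinar-like ratio was 2.12 (1.76 to 2.56), and the call was lost. Basal duct-like cells had 285 CPM (231 to 348) in KO and 122 CPM (106 to 141) in WT, a ratio of 2.33 (1.81 to 2.99) that did not pass and that compares cells which parted when clustered together. Myoepithelial-like cells had 82.0 CPM (52.5 to 122) in KO and 191 CPM (141 to 255) in WT, which did not pass either. Ionocyte-like cells had 17.9 CPM in KO, at the KO gauge of 22.8 CPM. In WT they had 118 CPM, from 21 UMIs, against a WT gauge of 61.3 CPM, with overlapping intervals. Striated or excretory duct-like cells had 87.5 CPM in KO and 18 CPM, from 2 UMIs, in WT. In all epithelial-like cells together Hp had 140.1 CPM (130.2 to 151) in KO and 206 CPM (196 to 217) in WT, a ratio of 0.679 (0.621 to 0.742) that did not pass.

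**Figure D4:**
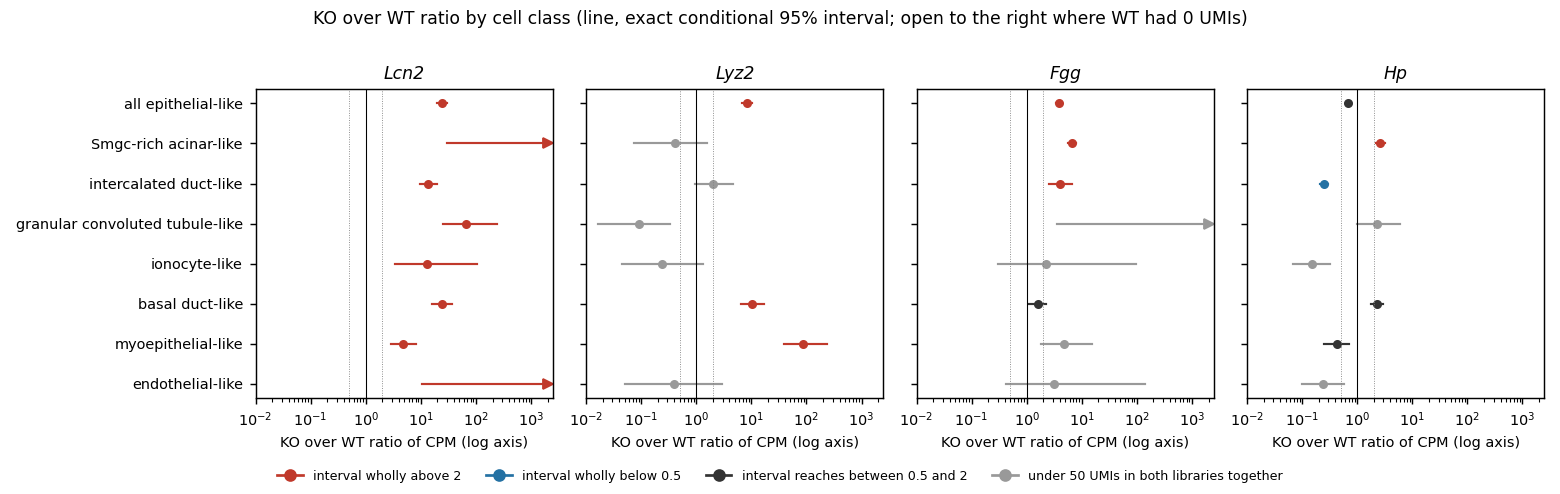
KO over WT ratio of CPM (x axis, log scale) for 4 members in all epithelial-like cells and in each class with at least 50 cells in both libraries, with exact conditional 95% intervals, open to the right where WT had 0 UMIs. All Lcn2 intervals lay above 2, Lyz2 passed 2 in 2 single classes, and Hp lay above 2 in Smgc-rich acinar-like and below 0.5 in intercalated duct-like cells.

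Adipocyte-like cells had the highest Hp level measured, in the KO library alone. All but 1 of the 19 KO cells had a Hp UMI, with 746 UMIs in all, 6659 CPM (6189.5 to 7154), and up to 125 UMIs in a cell. Of 5 adipocyte markers 4 were present with 328 UMIs, and Lep was at 0. The WT library had no adipocyte-like or fibroblast-like cluster, so these cells have no WT value, and a difference in what was dissected or dissociated cannot be told apart from the genotype. The lowest depth of a kept cell was 1077 UMIs in KO and 2175 UMIs in WT. Median depth was 1502.5 UMIs in KO fibroblast-like and 5942 UMIs in KO adipocyte-like cells. The part of this unequal minimum in the missing WT clusters was not tested. In joint clustering 6 WT cells fell in a fibroblast-like class. Myeloid-like cells had Hp levels of 50.6 CPM in KO and 51.0 CPM in WT, with overlapping intervals.

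Saa3 was almost absent from epithelium. KO epithelial-like cells had 21 UMIs in 10 cells, 3.97 CPM (2.46 to 6.07), of which 12 were in 1 Smgc-rich acinar-like cell, against 1 UMI in WT epithelial-like cells. With so few UMIs no call could be made in any epithelial-like class. KO myeloid-like cells had 177 UMIs, or 389 CPM (334 to 451), in 16 of 266 cells, and the 2 highest cells held 53.1% of them. WT macrophage-like cells had 5 UMIs, or 19.6 CPM (6.36 to 45.7), all in 1 cell. Most of the KO myeloid-like Saa3, 165 UMIs, was in cells with C1q and without S100a8 or S100a9. Of the 16 Saa3-positive KO myeloid-like cells 68.8% also had Lyz2, against 45.2% of the others. Both shares are of unthinned cells, and with 16 positive cells nothing is read from the difference. No Saa3 UMI was seen in the 410 cells of the KO gauge, which at a limit of 3 cells allows a share of up to 0.732% and by the exact binomial bound up to 0.896%.

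The other serum amyloid A genes were seen with Saa3 in KO adipocyte-like cells, mostly in a few of them. Saa3 had 72 UMIs there, or 643 CPM (503 to 809), in 7 of 19 cells, and pan-myeloid genes had 2 UMIs in the same cells. The 2 highest adipocyte-like cells held 59.7% of these Saa3 UMIs. Saa1, an acute-phase form secreted by liver, had 113 UMIs there, or 1009 CPM (831 to 1213), of 175 in the library, and the WT library had 3. Of the 113 Saa1 UMIs, 71 were in 1 cell, and 7 of the 19 cells had any. Saa2 had 22 UMIs there of 32 in the library, 16 of the 22 in 1 cell, and the WT library had 0. Fibroblast-like cells held 42 UMIs of Saa1, 9 of Saa2 and 15 of Saa3, 11 of the last in 1 cell.

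All epithelial-like cells pool classes whose proportions differed between the libraries. In these pooled cells, 3 of the 4 members with enough UMIs, namely Lcn2, Lyz2 and Fgg, were called higher in KO and none lower. Over all 9432 genes tested, 4.65% were called higher and 2.83% lower. Since these contrasts chose the members, nothing is read from that count. The median log2 ratio was 2.11 over the 4 members and 0.16 over all genes tested. With every cell thinned to 1000 UMIs, the calls of Lcn2 and Lyz2 remained and that of Fgg did not.

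Other acute-phase genes were mostly too low to compare. Of 21 listed, 5 could be tested in all epithelial-like cells, 3 were called higher in KO and none lower, with a median log2 ratio of 0.90. Fgb had 14.0 CPM in KO and 2.78 CPM in WT. Lbp, the lipopolysaccharide-binding protein, had 27.8 CPM in KO and 10.1 CPM in WT, and Lrg1, a leucine-rich glycoprotein of serum, had 18.3 CPM in KO and 5.14 CPM in WT. Complement C3, at 14.0 CPM in KO and 11.1 CPM in WT, and the copper carrier Cp, at 46.9 CPM in KO and 62.4 CPM in WT, were not called. These lists were drawn up with earlier results of the libraries known, and their counts are descriptions.

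Antimicrobial proteins were divided. Of 20 listed, 6 could be tested, 2 were called higher and 1 lower in KO, with a median log2 ratio of 0.20. Slpi, a protease inhibitor of mucosal fluids, had 92.8 CPM in KO and 14.3 CPM in WT, a ratio of 6.49. Chil1, a chitinase-like protein, had 10.6 CPM in KO and 2.78 CPM in WT. Lpo, the lactoperoxidase of saliva and milk, had 19.8 CPM in KO and 70.7 CPM in WT. Wfdc2 had 732 CPM in KO and 389 CPM in WT, below the call, and Pigr, which carries IgA across epithelium, had 17.0 CPM in KO and 32.5 CPM in WT.

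In all epithelial-like cells pooled, genes of IL-6, IL-17 and NF-kappaB signalling included 4 called higher and none lower among 20 tested of 22 listed. Their median log2 ratio was 0.29. Within single classes, none was called in Smgc-rich acinar-like (4 tested), intercalated duct-like (13 tested) or ionocyte-like cells (8 tested). Socs3 alone was called in basal duct-like (14 tested), granular convoluted tubule-like (7 tested) and myoepithelial-like cells (6 tested). Endothelial-like cells had calls for Socs3, Lifr and Osmr. The values that follow are of the pooled cells. Socs3, the feedback inhibitor of IL-6 signalling, had 211 CPM in KO and 71.9 CPM in WT, a ratio of 2.94. Il6ra, the IL-6 receptor chain, had 16.4 CPM in KO and 3.47 CPM in WT. Lifr, the receptor for leukaemia inhibitory factor, had 43.5 CPM in KO and 16.5 CPM in WT, and the transcription factor gene Cebpb had 64.7 CPM in KO and 26.7 CPM in WT. Stat3 had 215 CPM in KO and 112 CPM in WT, a ratio of 1.92 that did not pass. The NF-kappaB inhibitor gene Nfkbia, at 514 CPM in KO and 537 CPM in WT, was not called. Of 10 genes for iron handling and receptors of these proteins, 8 could be tested and 1 was called, Hmox1, the haem-degrading oxygenase, with 151 CPM in KO and 50.3 CPM in WT. The ferritin genes Fth1, at 2435 CPM in KO and 1842 CPM in WT, and Ftl1, at 2582 CPM in KO and 1905 CPM in WT, were not called.

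Cells with 1 member were also looked at for another. In KO intercalated duct-like cells 42.9% of the 112 cells with Lcn2 also had Hp, against 23.6% of the cells without it. The cells with Lcn2 had a median of 4943 UMIs and those without it 2033 UMIs. In KO Smgc-rich acinar-like cells 54.0% of cells with Fgg and 50% of cells without it had Hp. After thinning these shares were 32.6% with Fgg and 31.6% without.

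Across 27 profiles of a class in a library, each from at least 20 cells, Pearson's r of log2(CPM + 10) was 0.61 between Fgg and Hp, 0.39 between Lcn2 and Fgg and 0.40 between Lyz2 and Saa3. Profiles of 1 library share its depth and free RNA, so these values are descriptions. The 19 KO adipocyte-like cells, which had the highest Hp and Saa3 levels, were too few to give a profile. Among the profiles Saa3 had 389 CPM in KO myeloid-like cells and next 86.6 CPM in KO fibroblast-like cells, so its r values rest largely on 1 profile. Of 9812 genes, those most like Lcn2 were Snhg9 (0.87), Cirbp (0.84), Cth, Pik3ip1 and Trp53inp1 (0.83 each). Those near Lyz2 included Ccl6 (0.81), a chemokine of myeloid cells, and Cadm1, Camk1d and Sema4d (0.76 each). Fgg was nearest to Map1lc3b (0.82), Smoc1 (0.77), Traf3ip2, Acot1 and Otud3 (0.75 each). Hp was nearest to Hsd17b10 (0.81), Acot1 (0.78), Homer2 (0.77), Upb1 (0.76) and Cryab (0.75). Saa3 was nearest to Il1r2 and Tnfsf9 (0.92 each), Plau (0.88), Fcgr2b (0.87) and Ptgs2 (0.86), of which Il1r2 encodes the decoy receptor for IL-1 and Ptgs2 the inducible cyclooxygenase.

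Near the mitochondrial limit that chose the barcodes, KO barcodes with 10% to under 20% mitochondrial UMIs had 346 CPM of Lcn2, 34.9 of Fgg, 271 of Hp, 46.0 of Lyz2 and 39.4 of Saa3. The KO barcodes at 20% or more, left out elsewhere, had 238 CPM of Lcn2, 30.7 of Fgg, 48.2 of Hp, 6.74 of Lyz2 and 1.35 of Saa3. The 239 WT barcodes at 20% or more had 5.67 CPM of Lcn2, 9.93 of Fgg, 21.3 of Hp, 92.2 of Lyz2 and 0 UMIs of Saa3.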

How the data were processed

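The authors deposited whole-number UMI counts per Ensembl gene and barcode, 1 table per library. Per the submitters' processing notes, the tools were bcl2fastq 2.19.1, Seurat 3.1.2 and Cell Ranger 2.1.0, and the build was mm10. The sources used here do not say how the deposited barcodes were selected. The tables held 11828669 UMIs in 4726 KO barcodes and 8811082 UMIs in 1970 WT barcodes. Symbols and positions came from GENCODE M21. Barcodes with fewer than 200 genes, or with 20% or more of their UMIs mitochondrial, were left out, and no doublets were removed.

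Clustering ran per library in Python 3.11.15, using leidenalg 0.10.2 through scanpy 1.11.5 (2000 variable genes without the 5 members, the listed genes and Trp63, 30 components, 15 neighbours, resolution 1). A name needed at least 3 markers at 2-fold or more with at least 10 UMIs each. Unnamed clusters whose pan-epithelial level exceeded that of every named non-epithelial cluster were counted as epithelial, a rule set after the clusters were seen.

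UMIs were summed per class. For log2 ratios 10 CPM were added to KO and WT alike, a UMI count of 0 was set at 3 counts where a bound was needed, and intervals came from scipy 1.17.1. TMM factors for an alternative came from edgeR 4.0.16, used for scaling only. The ratio step was tested on simulated data. Members and lists were chosen with earlier results of these data known. Named genes were the 5 members, list genes past the call or among the 4 with the most UMIs, and the 5 genes most like each member, 1 of which is not reported here. A test between genotypes needs more than the 1 library each had.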

Additional observations from a re-analysis of the deposited data

Results flagged for a closer look

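Hp moved in opposite directions in 2 epithelial classes. Its log2 KO over WT ratio was 1.35 in Smgc-rich acinar-like cells, from 643 CPM in KO and 246 CPM in WT, and -1.95 in intercalated duct-like cells, from 171 CPM in KO and 686 CPM in WT. The difference between the classes was not tested, since there was 1 library per genotype.

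The 1664 KO barcodes with 20% or more mitochondrial UMIs, left out of the main comparisons, held 238 CPM of Lcn2, 30.7 CPM of Fgg and 48.2 CPM of Hp. The 239 WT barcodes beyond the same limit held 5.67 CPM of Lcn2, 9.93 CPM of Fgg and 21.3 CPM of Hp. The part of cell damage in these values was not tested.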

How the results depend on the processing

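No paired analysis was possible because there was 1 library per genotype, and for the same reason no replicate could be left out. Intervals cover counting error, and counting error is the only error these data can give. In all epithelial-like cells the log2 ratio of Lcn2, 3.85, was 4.49 with 1 CPM added and 2.95 with the gauge's free RNA subtracted. That of Lyz2, 2.47, was 1.74 without a barcode filter, 3.50 with the stricter filter (500 genes or more, mitochondrial UMIs below 10%), 1.46 thinned to 1000 UMIs, 2.98 with 1 CPM added, 3.78 with free RNA subtracted, and -0.27 without cells of 5 or more Lyz2 UMIs, an alternative added after the data were seen. That of Fgg, 1.75, was 1.19 without a filter, 2.47 with the stricter filter, 1.10 thinned and 1.57 with TMM scaling. That of Hp, -0.53, was -0.99 without a filter, -0.04 with the stricter filter, -0.81 thinned, -0.26 without cells with pan-myeloid UMIs, -0.71 with TMM scaling and -0.29 with free RNA subtracted. That of Saa3, 0.46 from 21 KO UMIs and 1 WT UMI, was 2.13 with 1 CPM added and 0.30 to 0.74 under the 10 other alternatives. The epithelial share of KO Lcn2 UMIs, 86.3%, was 84.6% with joint clustering, 89.2% without a filter, 69.9% with the stricter filter, 82.3% thinned and 83.1% without cells with pan-myeloid UMIs. The WT share, 99%, was 100% without a filter and 100% thinned. The epithelial share of Lyz2 was 51.9% in KO, but 55.7% with the stricter filter, 24.6% thinned, 43.4% without cells with pan-myeloid UMIs and 8.49% without cells of 5 or more Lyz2 UMIs. In WT it was 11.3%, but 7.49% thinned and 5.61% without cells with pan-myeloid UMIs. The genes called in all epithelial-like cells numbered 706, or 251 when thinned, where fewer genes reach 50 UMIs. Without the 2 top cells in each library, 12 of 13 class ratios kept their direction and call, and Lyz2 in basal duct-like cells turned to -1.28. Causes of these moves were not tested beyond what each alternative leaves out.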
